A study of Rattus norvegicus with 8 samples.

Results

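The genes described here are 10 enzymes and small proteins of antioxidant defence: Sod1, Sod2, Cat, Gpx1, Prdx1, Hmox1, Nqo1, Gclc, Gstp1 and Txn1. They were taken by RefSeq record, NM_017050 for Sod1, NM_017051 for Sod2, NM_012520 for Cat, NM_030826 for Gpx1, NM_057114 for Prdx1, NM_012580 for Hmox1, NM_017000 for Nqo1, NM_012815 for Gclc, NM_012577 for Gstp1 and NM_053800 for Txn1, and all 10 were present among the 18314 records of the deposited tables. Right stellate ganglia, the sympathetic ganglia that supply most of the cardiac sympathetic innervation, were sequenced from 4 Wistar rats and 4 spontaneously hypertensive rats (SHR), all male and aged 16 weeks, with 1 ganglion of 1 rat per library. The SHR is an inbred strain with genetic hypertension and the Wistar rats are the normotensive controls, so strain background and blood pressure cannot be told apart. Neither strain carried a transgene or received a treatment. The authors' Salmon tables give an estimated read count and a TPM (a level scaled for record length and library size) for each record.

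Cells convert superoxide to hydrogen peroxide with superoxide dismutases and then remove the peroxide with catalase, glutathione peroxidases and peroxiredoxins. Glutathione and thioredoxin supply the reducing power for the glutathione peroxidases and peroxiredoxins. The transcription factor NRF2, held back by KEAP1, induces many antioxidant genes together. Oxidative stress has long been studied in sympathetic neurons of hypertensive animals because reactive oxygen species act on calcium handling and transmitter release.

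Total estimated counts ranged from 30112271 to 35509074 in the Wistar rats and from 25820299 to 34026714 in the SHR. Markers of sympathetic neurons were abundant in every rat, with summed levels of 35491 to 42002 CPM (counts relative to the TMM-scaled library total) in Wistar and 32271 to 39575 CPM in SHR over 6 of 7 listed genes. None of the 12 marker lists of neurons, glia, vessels, blood and immune cells held a record past the threshold of the edgeR test used here, with 5 of 59 records at an unadjusted p under 0.05 and 3 past DESeq2's threshold (Mbp, S100a8 and S100a9), and none had summed levels that separated the strains. Macrophage marker sums, most of them Cd74, ranged from 565 to 978 CPM in Wistar and from 178 to 901 CPM in SHR. The lowest sums were in SHR replicates 3 and 4. Haemoglobin and Alas2 of red blood cells ranged from 1084 to 3590 CPM in Wistar and from 138 to 3151 CPM in SHR. A whole ganglion was measured, so fewer cells of a type and less RNA per cell cannot be told apart. Wistar replicate 1 and SHR replicate 1 stood apart from the other rats of their strains in many records, and the values of Sod2, Gpx1, Prdx1, Gclc, Fth1 and Keap1 are also given without one or both of them.

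Of the 10 genes, Gclc was the single one past the threshold between the strains, and it was higher in SHR. A record passed when the quasi-likelihood test of edgeR gave it an adjusted p under 0.05 (Benjamini-Hochberg, over 13659 records), and 389 records or 2.85% did. SHR had higher levels in 158 of the tested records (1.16%) and lower levels in 231 (1.69%). Upper-quartile scaling in place of TMM changed this split to 190 higher and 183 lower. Hmox1 also had no overlap between the strains but missed the threshold, and Sod2 had the largest difference of the 10 with wide spread in both strains. The other 7 genes had log2 fold changes between -0.01 and 0.21. The median log2 fold change of the 10 genes was 0.11, against 0.01 for all tested records, and the median absolute value was 0.13 against 0.21. The strains did not overlap in 2 of the 10 genes, and they did not overlap in 10.6% of all tested records.

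The levels of the 10 genes spanned more than 2 orders of magnitude. Txn1 had the highest mean TPM over the 8 rats, 3180 ± 308 (SD, n = 8), and Prdx1 followed with 2823 ± 226. Gstp1 and Sod1 had 857 ± 55.2 and 765 ± 50.5, Gpx1 258 ± 70.7, Cat 162 ± 16.2, Nqo1 107 ± 12.6, Sod2 100.4 ± 67.5, Hmox1 30.8 ± 5.61 and Gclc 4.90 ± 2.005 (TPM, SD, n = 8 each). Txn1 ranked 32nd and Prdx1 37th among all records by mean TPM, and Gclc ranked 7610th. The order of mean levels passed at an adjusted p under 0.05 between 8 of 9 neighbouring pairs. Their adjusted p ran from 0.0141 to 0.0352 (two-sided exact paired permutation test of log2 TPM over rats). The smallest unadjusted p that 8 rats allow is 0.0078. Sod2 was above Hmox1 in 6 of 8 rats, and Gstp1 above Sod1 and Gpx1 above Cat in 7 of 8 each. The rest of these pairs kept their order in all 8 rats. Nqo1 and Sod2 could not be ordered, since Nqo1 was higher in 4 of 8 rats (adjusted p = 0.359 by the same exact test). The Txn1 record is 330 bases long, with an effective length of 119 to 124 bases, so its TPM depends strongly on that length correction.

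**Figure D1:**
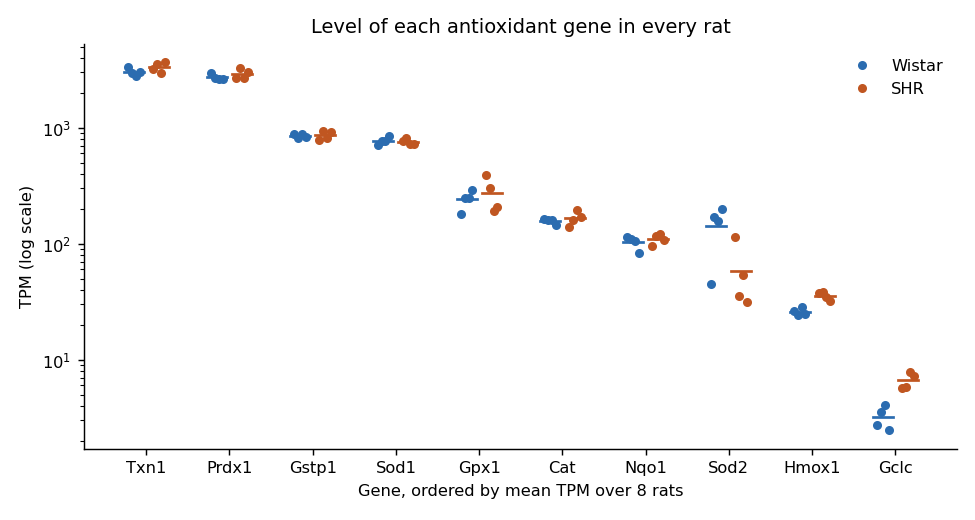
TPM of each of the 10 genes on a log axis, with 1 point per rat and a bar at the mean of each strain (n = 4), Wistar in blue and SHR in orange. Gclc and Hmox1 are the genes in which the strains do not overlap, and Sod2 has the widest spread, from 31.1 to 198 TPM.

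Superoxide dismutases differed in how much they varied. Sod1, the cytosolic copper and zinc enzyme, had 705, 766, 769 and 855 TPM in Wistar replicates 1 to 4 and 774, 812, 721 and 721 TPM in SHR replicates 1 to 4. The strains overlapped throughout. Its log2 fold change was -0.01 (SE 0.11, 95% interval from -0.24 to 0.23, adjusted p = 0.982 from edgeR).

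Sod2, the manganese enzyme of mitochondria, had 44.7, 170, 156 and 198 TPM in Wistar replicates 1 to 4. In SHR replicates 1 to 4 it had 115, 35.6, 53.4 and 31.1 TPM. Wistar replicate 1 thus lay among the SHR replicates 2 to 4, and SHR replicate 1 lay above them and below the other Wistar rats. The strain means were 142 ± 67.2 TPM in Wistar and 58.7 ± 38.6 TPM in SHR (SD, n = 4 each). The log2 fold change was -1.24 (SE 0.48, 95% interval from -2.32 to -0.16, adjusted p = 0.235 from edgeR, exact permutation p = 0.0571), lower in SHR but not past the threshold. It was -1.53 without Wistar replicate 1, with an adjusted p of 0.106 from edgeR. It was -1.84 without SHR replicate 1, with an adjusted p of 0.0475 from edgeR. Without both rats it was -2.13 with an adjusted p of 0.000346, but the pair was chosen after the Sod2 values were seen and this p is no independent evidence. The ratio of Sod1 to Sod2 TPM followed the same division, at 4.32 to 4.92 in Wistar replicates 2 to 4 and 6.74 in SHR replicate 1, against 15.8 in Wistar replicate 1 and 13.5 to 23.2 in SHR replicates 2 to 4.

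**Figure D2:**
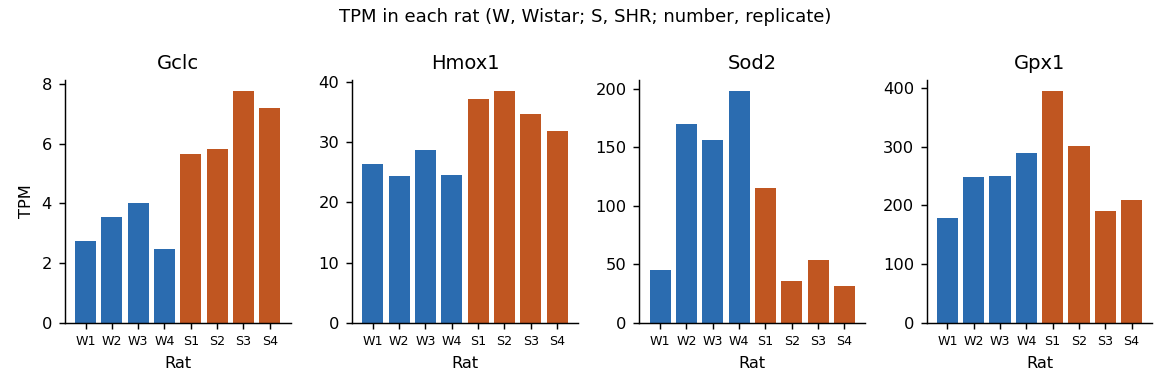
TPM of Gclc, Hmox1, Sod2 and Gpx1 in each rat as bars from 0, Wistar in blue and SHR in orange. Every SHR bar is above every Wistar bar for Gclc and Hmox1, whereas for Sod2 Wistar replicate 1 has 44.7 TPM and SHR replicate 1 has 115 TPM, each unlike the other rats of its strain.

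The division seen in Sod2 was not limited to this gene. In 986 of the 13659 tested records, or 7.22%, Wistar replicate 1 and SHR replicates 2 to 4 all lay below the other 4 rats. Of the 138 tested records in the wider antioxidant lists described further on, 18 had this order, or 13.0%. Sod2, whose own values defined the order, was among the 18, and the opposite order was not counted. The others with this order were Sod3, Srxn1, Glrx3, Keap1, Mafg, Mafk, Me1, Idh2, Pon3, Msrb2, Fth1 and both records of Slc3a2. So was 1 record of each of Txnrd1, Hmox2, Cp and Park7, genes with more than 1 record. Fth1, the heavy chain of the iron store ferritin, showed it most widely, with 2446, 11717, 13669 and 13544 TPM in Wistar replicates 1 to 4 and 22123, 3436, 2861 and 1624 TPM in SHR replicates 1 to 4. The log2 fold change of Fth1 was -0.40 with all rats (adjusted p = 0.84 from edgeR) and -2.27 without replicate 1 of both strains (adjusted p = 0.00146 from edgeR), where the rats left out were again chosen for this order. Among the 5 records whose profiles over the 8 rats were nearest to Sod2, by root mean square difference of centred log2 CPM, were Tmem179 (0.208), Akap17a (0.214), Rpn1 (0.229) and Slc3a2 (0.248). Rpn1, a subunit of the oligosaccharyltransferase of the endoplasmic reticulum, had 38.7 TPM in Wistar replicate 1 and 121 to 154 TPM in the other Wistar rats, with 100.4 TPM in SHR replicate 1 and 34.7 to 39.9 TPM in the other SHR. None of these 4 passed the threshold between the strains. The comparison with Sod2 was chosen after its values were seen, and the cause of the division was not tested.

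**Figure D3:**
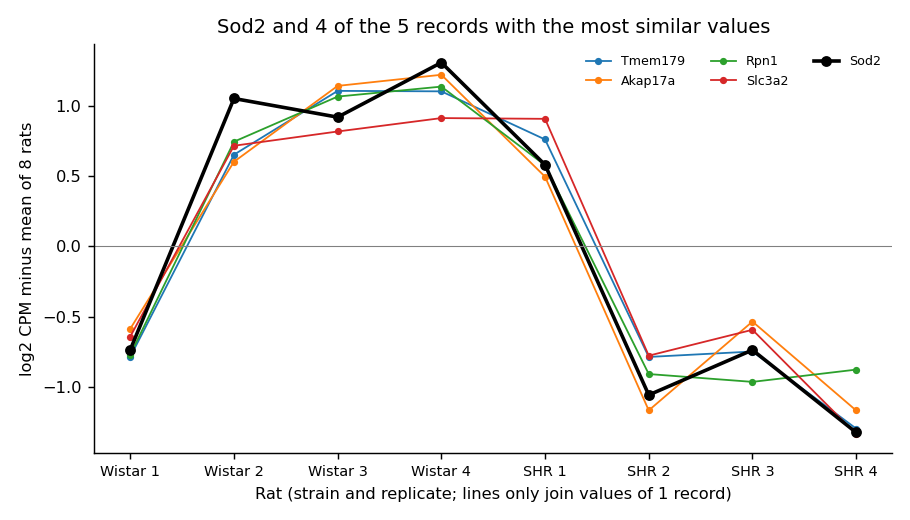
Log2 CPM of Sod2 (black) and of 4 of the 5 records nearest to it (colours), each minus its mean over the 8 rats, by rat. Wistar replicate 1 and SHR replicates 2 to 4 lie below 0 and Wistar replicates 2 to 4 and SHR replicate 1 above 0.

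Peroxide is removed by catalase, glutathione peroxidases and peroxiredoxins. Cat, the haem enzyme of peroxisomes, had 163, 160, 161 and 144 TPM in Wistar replicates 1 to 4 and 141, 161, 194 and 169 TPM in SHR replicates 1 to 4. Its log2 fold change was 0.08 (SE 0.09, 95% interval from -0.12 to 0.29, adjusted p = 0.681 from edgeR). The estimated count of Cat was not whole in 5 of 8 rats, so some of its reads were divided with another record, whereas the counts of the other 9 genes were whole in every rat within 1e-06.

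Gpx1, the selenium-dependent glutathione peroxidase of the cytosol, had 179, 248, 249 and 290 TPM in Wistar replicates 1 to 4. It had 395, 301, 190 and 208 TPM in SHR replicates 1 to 4. SHR replicate 1 was the highest rat and Wistar replicate 1 the lowest, and the strains overlapped. The log2 fold change was 0.21 (SE 0.25, 95% interval from -0.35 to 0.77, adjusted p = 0.712 from edgeR), and it was -0.041 without SHR replicate 1.

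Prdx1, an abundant peroxiredoxin that is reduced again by thioredoxin, had 2956 TPM in Wistar replicate 1, 2636 to 2667 TPM in the other Wistar rats and 2699 to 3255 TPM in the SHR. Its log2 fold change was 0.12 (SE 0.13, 95% interval from -0.17 to 0.40, adjusted p = 0.678 from edgeR), and it was 0.19 without Wistar replicate 1 (adjusted p = 0.464). Txn1, the thioredoxin that reduces it, had 3348, 2953, 2794 and 3005 TPM in Wistar replicates 1 to 4 and 3198, 3526, 2954 and 3664 TPM in SHR replicates 1 to 4. The log2 fold change of Txn1 was 0.15 (SE 0.13, 95% interval from -0.15 to 0.45, adjusted p = 0.607 from edgeR). In both genes the strains overlapped, and the intervals leave room for changes in either direction.

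Gclc encodes the catalytic subunit of glutamate cysteine ligase, the rate-limiting enzyme of glutathione synthesis. It had 2.74, 3.56, 4.03 and 2.45 TPM in Wistar replicates 1 to 4 and 5.65, 5.83, 7.76 and 7.21 TPM in SHR replicates 1 to 4. All 4 SHR values were above all 4 Wistar values. The means were 3.19 ± 0.725 TPM in Wistar and 6.61 ± 1.03 TPM in SHR (SD, n = 4 each), from 183 to 560 estimated counts per rat, the fewest of the 10 genes. Gclc was 2.09-fold higher in SHR, with a log2 fold change of 1.06 (SE 0.17, 95% interval from 0.69 to 1.44, adjusted p = 0.00808 from edgeR). The exact permutation test on scaled CPM gave p = 0.0286, the smallest that 4 rats against 4 allow. Leaving out any 1 rat gave log2 fold changes from 0.97 to 1.18 with adjusted p from 0.0102 to 0.0327 from edgeR, and leaving out replicate 1 of both strains gave 1.07 with an adjusted p of 0.0112.

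Gclm, the modifier subunit that raises the efficiency of Gclc, had 7.98 TPM on average in Wistar and 8.22 TPM in SHR, with a log2 fold change of 0.05 (adjusted p = 0.906 from edgeR). The records whose profiles over the 8 rats were nearest to Gclc, by the same measure, were Proca1 (0.118), Gabrb2 (0.122), Pou2f1 (0.151), Tmtc3 (0.154) and NM_001191636 (0.158), for which the reference table gave no gene. None of them belongs to the antioxidant lists. Pou2f1, a widely expressed transcription factor, had 1.48 to 2.06 TPM in Wistar and 2.91 to 4.18 TPM in SHR. Of these 5 records, Gabrb2 did not pass the threshold (adjusted p = 0.157 from edgeR). A record chosen for its likeness to Gclc tends to share the strain difference of Gclc, so this is a description.

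Gstp1, a glutathione transferase that conjugates glutathione to electrophiles, had 882, 822, 879 and 825 TPM in Wistar replicates 1 to 4 and 778, 942, 818 and 913 TPM in SHR replicates 1 to 4. The SHR values spread on both sides of the Wistar values. Its log2 fold change was 0.04 (SE 0.11, 95% interval from -0.20 to 0.29, adjusted p = 0.879 from edgeR).

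Hmox1, the inducible haem oxygenase that breaks down haem to biliverdin, carbon monoxide and iron, had 26.5, 24.4, 28.6 and 24.6 TPM in Wistar replicates 1 to 4. It had 37.3, 38.5, 34.7 and 31.8 TPM in SHR replicates 1 to 4. Each SHR value was above each Wistar value, and the means were 26.0 ± 1.98 TPM in Wistar and 35.6 ± 2.95 TPM in SHR (SD, n = 4 each). The log2 fold change was 0.47 (SE 0.12, 95% interval from 0.21 to 0.73), with an adjusted p of 0.0739 from edgeR, which misses the threshold, and an exact permutation p of 0.0286. With DESeq2 per record and Salmon's effective lengths as an offset, the adjusted p was 0.0281. Over all alternatives it ranged from 0.0281 to 0.278. The study used DESeq2 on values summarised to genes, and its supplement lists Hmox1 among the significant genes of phosphoric ester hydrolase activity. Macrophages are rich in Hmox1. SHR replicates 3 and 4 had the lowest macrophage sums of the 8 rats, 178 and 315 CPM, against 901 and 818 CPM in SHR replicates 1 and 2. Cd74 made up most of each sum, at 453 to 795 CPM in Wistar. C1qa, C1qb, Cd68, Aif1 and Mrc1 were higher in SHR replicates 1 and 2 than in every Wistar rat. C1qa had 33.1 and 22.6 CPM there, against 11.5 to 16.3 CPM in Wistar. Cd74, Csf1r, C1qc, Cd14 and Cd163 did not place both of these rats above every Wistar rat. The Hmox1 levels of SHR replicates 3 and 4, 34.7 and 31.8 TPM, were the lowest of the SHR and above those of every Wistar rat. The neutrophil markers S100a8 and S100a9 summed to 0.364 to 1.68 CPM in Wistar and to 11.6, 10.3, 1.55 and 1.58 CPM in SHR replicates 1 to 4, and the part of macrophages or neutrophils in the Hmox1 levels was not tested.

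None of the 13 tested records of haem breakdown and iron storage, Hmox1 included, passed the threshold with edgeR, with 4 at an unadjusted p under 0.05 and 1, Hmox1, past it with DESeq2. Nqo1, the NADPH quinone reductase that is widely used as a readout of NRF2, had 115, 110, 106 and 82.8 TPM in Wistar replicates 1 to 4 and 95, 116, 122 and 107 TPM in SHR replicates 1 to 4. The strains overlapped, with a log2 fold change of 0.10 (SE 0.13, 95% interval from -0.18 to 0.39, adjusted p = 0.713 from edgeR).

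**Figure D4:**
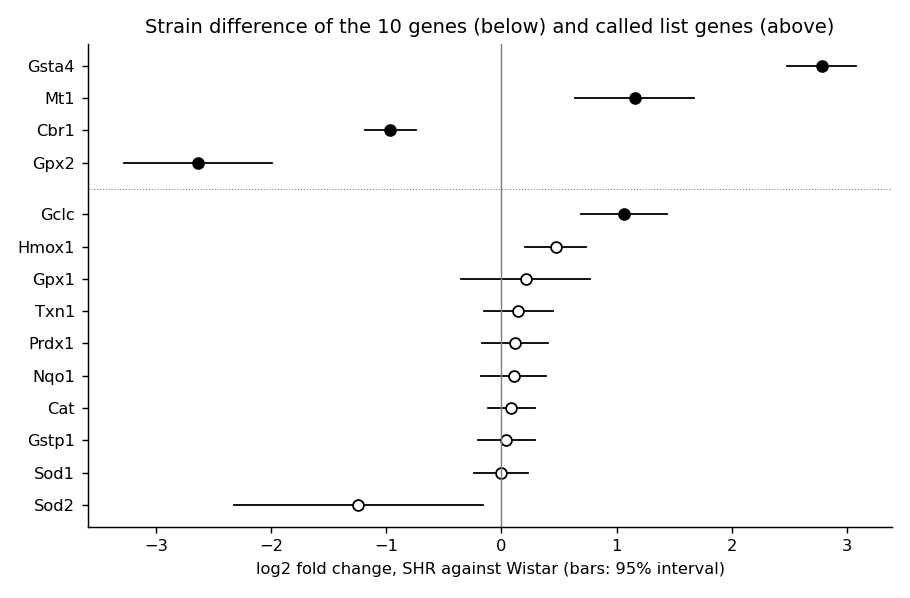
Log2 fold change of SHR against Wistar with its 95% interval for the 10 genes (lower block) and for 4 further list genes past the threshold (upper block), filled where the adjusted p was under 0.05. The interval of Gclc runs from 0.69 to 1.44, that of Sod2 from -2.32 to -0.16 and that of Sod1 from -0.24 to 0.23.

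NRF2 acts through the antioxidant response element, whose core TGACNNNGC was searched on both strands of the RefSeq promoter windows of build GRCr8, from 250 bases before to 50 bases after each gene start. Windows were found for 9 of the 10 genes, all but Hmox1. The core was present in 3 of these 9, Sod2, Prdx1 and Gstp1, and in 12.1% of all 33469 windows. The AP-1 motif TGANTCA, which can overlap the core, was present in Prdx1 and Gstp1 and in 7.33% of all windows. The Gclc window held no core. Sequence outside the windows was not searched, so a window without the core does not show that a gene lacks the element. The 250 bases before the start are printed for Gclc as the gene past the threshold, for Gpx2 as the list gene that fell most, and for the 3 of the 10 genes with a core, with the core in capitals.
Gclc, chr8:87510226-87510475, plus strand: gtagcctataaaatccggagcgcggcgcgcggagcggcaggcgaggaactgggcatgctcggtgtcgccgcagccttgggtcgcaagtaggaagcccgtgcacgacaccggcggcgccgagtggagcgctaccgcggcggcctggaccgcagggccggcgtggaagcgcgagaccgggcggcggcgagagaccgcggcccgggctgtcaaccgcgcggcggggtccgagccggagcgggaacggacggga
Gpx2, chr6:101230034-101230283, minus strand: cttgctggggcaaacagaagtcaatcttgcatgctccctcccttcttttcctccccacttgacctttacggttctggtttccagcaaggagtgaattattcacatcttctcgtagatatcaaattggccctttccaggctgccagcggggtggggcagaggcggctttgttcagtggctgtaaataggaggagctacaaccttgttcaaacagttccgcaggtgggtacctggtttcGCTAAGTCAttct
Sod2, chr1:50050169-50050418, minus strand: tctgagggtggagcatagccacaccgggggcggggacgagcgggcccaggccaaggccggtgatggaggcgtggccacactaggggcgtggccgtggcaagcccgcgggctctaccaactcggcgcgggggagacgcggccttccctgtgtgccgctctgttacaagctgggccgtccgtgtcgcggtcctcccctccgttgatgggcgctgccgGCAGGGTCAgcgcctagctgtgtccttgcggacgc
Prdx1, chr5:135383656-135383905, plus strand: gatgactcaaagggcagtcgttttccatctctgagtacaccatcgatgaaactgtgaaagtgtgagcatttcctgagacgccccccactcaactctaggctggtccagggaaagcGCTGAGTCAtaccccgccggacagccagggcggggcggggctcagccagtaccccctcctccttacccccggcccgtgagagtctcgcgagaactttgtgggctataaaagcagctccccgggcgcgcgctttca
Gstp1, chr1:210769706-210769955, minus strand: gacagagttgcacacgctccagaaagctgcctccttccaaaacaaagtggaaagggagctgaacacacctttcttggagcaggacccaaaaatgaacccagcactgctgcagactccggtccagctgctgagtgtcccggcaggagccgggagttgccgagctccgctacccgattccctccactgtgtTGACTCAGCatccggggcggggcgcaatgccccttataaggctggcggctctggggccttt
In Gstp1 the core began 61 bases before the start and in Prdx1 135 bases before it, and neither gene passed the threshold between the strains. In Sod2 it began 35 bases before the start. Of the further list genes past the threshold, the core lay 13 bases before the start in Gpx2, which was lower in SHR, and 101 bases before it in Mt1, which was higher, and 1 Apoe window held it 47 bases before the start, while Gsta4 and Cbr1 had none. A match is a match of letters only.

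The wider antioxidant lists held 131 genes by role, among them the 10 described above, and 125 of these had a record. Of their 138 tested records 6 passed the threshold, 4 higher and 2 lower in SHR, which is 4.35% of the records against 2.85% of all tested records. Without the 10 genes this was 5 of 128 records. The 6 records belong to 6 genes of 118, and 5 list genes passed when records were summed per gene. The strains did not overlap in 12 of the 138, or 8.70%, against 10.6% of all tested records. The median log2 fold change over the lists was 0.05, against 0.01 over all tested records.

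Gpx2, a glutathione peroxidase best known from the gut epithelium, fell most. It had 39.9, 41.9, 31.0 and 29.0 TPM in Wistar replicates 1 to 4 and 8.58, 5.70, 3.94 and 4.03 TPM in SHR replicates 1 to 4. It was 6.22-fold higher in Wistar, with a log2 fold change of -2.64 (SE 0.29, adjusted p = 0.00097 from edgeR). The other peroxidases of that list did not pass. Gpx4, the phospholipid hydroperoxide glutathione peroxidase, has 2 records. The more abundant of them had 914 ± 59.2 TPM in Wistar and 1183 ± 102 TPM in SHR (SD, n = 4 each, log2 fold change 0.37, adjusted p = 0.143 from edgeR).

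Gsta4, a glutathione transferase that conjugates the lipid peroxidation product 4-hydroxynonenal, rose most among the list genes with a single record. It had 11.01 to 14.3 TPM in Wistar and 78.6 to 92.1 TPM in SHR, a 6.87-fold difference (log2 fold change 2.78, SE 0.13, adjusted p = 7.04e-06 from edgeR). Its count was not whole in 7 of 8 rats, so some reads were divided with another record. Of the other 21 tested transferase records none passed, with Mgst3, the most abundant of them, at 1606 ± 22.0 TPM in Wistar and 1562 ± 112 TPM in SHR (SD, n = 4 each).

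Cbr1, a carbonyl reductase that uses NADPH, had 161 to 183 TPM in Wistar and 81.6 to 96.6 TPM in SHR, with a log2 fold change of -0.97 (SE 0.10, adjusted p = 0.000708 from edgeR). Mt1, a metallothionein that binds zinc and copper, had 9.32, 14.0, 15.8 and 14.7 TPM in Wistar replicates 1 to 4 and 23.7, 30.0, 27.6 and 38.2 TPM in SHR replicates 1 to 4. Its log2 fold change was 1.16 (SE 0.23, adjusted p = 0.0278 from edgeR). For both genes the strains did not overlap. Mt1 missed the threshold in 6 of 8 fits that left out 1 rat in turn, so its call depends on single rats.

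The sixth was 1 of 5 records of Apoe, a lipid carrier, with 0 to 2.01 TPM in Wistar and 43.2 to 196 TPM in SHR. Salmon divided reads among the 5 records, and their sum gave a log2 fold change of -0.51 (SE 0.47, adjusted p = 0.601 from edgeR), the opposite direction, so no change of Apoe as a gene is reported.

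No record passed among the superoxide dismutases, peroxiredoxins, thioredoxins, genes of NRF2 control or oxidant sources such as NADPH oxidase subunits, with either edgeR or DESeq2 without length offset. The DESeq2 fit with length offset was not counted by list. At an unadjusted p under 0.05 from edgeR there were 1 of 4 superoxide dismutases, 1 of 7 peroxiredoxin and sulfiredoxin records, 3 of 12 thioredoxin and glutaredoxin records, 1 of 10 records of NRF2 control and 1 of 13 oxidant sources. Nfe2l2, which encodes NRF2, had 15.7 TPM on average in Wistar and 14.7 TPM in SHR (log2 fold change -0.08, adjusted p = 0.766 from edgeR). Keap1 had 9.16 and 5.97 TPM (log2 fold change -0.61, adjusted p = 0.341 from edgeR), in the order of rats seen for Sod2. Its log2 fold change was -1.09 without replicate 1 of both strains. The rats left out were chosen for this order, so the larger change is no independent evidence.

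The most abundant genes of the remaining lists also did not pass. Ggt7 of glutathione recycling had mean levels of 178 TPM in Wistar and 168 TPM in SHR. Idh1, which supplies NADPH, had 670 and 685 TPM, and Maoa, a source of hydrogen peroxide from amine breakdown, had 720 and 675 TPM. Rbx1, a subunit of the ubiquitin ligase that degrades NRF2, had 322 and 331 TPM, and Selenow, a selenoprotein of redox control, had 5517 and 6202 TPM.

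**Figure D5:**
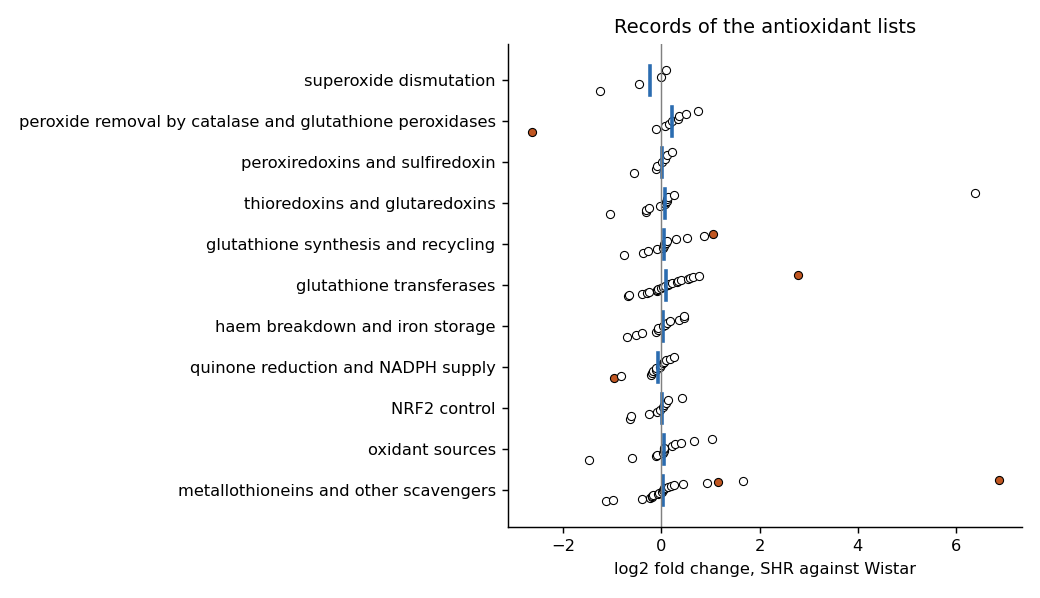
Log2 fold change of SHR against Wistar for each of the 138 tested records by list, filled where the adjusted p was under 0.05, with a blue bar at each list's median. The 6 filled points lie in 5 of the 11 lists, and the median of every list lies between -0.23 and 0.21.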

How the data were processed

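Libraries of 4 Wistar and 4 SHR right stellate ganglia were grouped by the strain in the sample labels. The labels name a stranded mRNA kit, whereas the methods describe SMARTer amplification. The authors quantified read pairs with Salmon 0.8.2 against rat RefSeq mRNA (rn6), and deposited for each record an estimated count and a TPM, not scaled between samples beyond TPM. Estimated counts were rounded and tested per record with edgeR 4.0.16 (R 4.3.3; TMM, filterByExpr, glmQLFit, glmQLFTest, Benjamini-Hochberg adjusted p under 0.05), and the script was tested on simulated data. Standard errors were derived from the F statistic of each log2 fold change. DESeq2 1.42.0 and limma 3.58.1, the latter on log2(TPM + 1), were alternatives. Records were paired with symbols through RefSeq's table of assembly GRCr8, where 17360 of 18314 matched 1 gene. Members and lists were chosen with earlier results of these data known. Named genes were the 10 members, list genes past the threshold, the most abundant gene of each list, the 5 records nearest to each member past the threshold, and macrophage markers for Hmox1. Outside this rule, Gclm, Nfe2l2, Keap1, the neighbours of Sod2, the list records in its order of rats, and the markers past DESeq2's threshold were named after their values were seen. Of the 5 records nearest to Sod2, 1 is not reported here. Markers for 12 cell types were checked, and 0 columns were left unmapped. Rats of a strain differed by more than sampling noise.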

Additional observations from a re-analysis of the deposited data

Results flagged for a closer look

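In 30 groups of 4 rats, for the 10 genes and the 5 further list records past the threshold, 4 groups held a rat whose scaled count lay far from the other 3 by Dixon's criterion, where chance gives about 1.5. For Sod1, Wistar replicate 4 had 327 CPM against 279 to 285 CPM in the other Wistar rats. For Prdx1, Wistar replicate 1 had 1601 CPM against 1277 to 1319 CPM. For Cat, SHR replicate 1 had 280.2 CPM against 329.9 to 334 CPM in the other SHR. For Cbr1, SHR replicate 2 had 73.3 CPM against 59.2 to 60.4 CPM, still below every Wistar rat. Sod2 was not among them.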

How the results depend on the processing

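Gclc kept its direction in all 19 alternatives and lost the threshold in 1, the replicate block, with a log2 fold change of 1.08 and an adjusted p of 0.0616 from edgeR. Deviations of same-numbered rats from their strain means had correlations of -0.29 to -0.038. Rats of unlike number were not compared, so these values do not show whether the numbers pair the rats. Under the block 0 of the 10 genes passed with edgeR, 2 had an unadjusted p under 0.05, and 132 of all records passed, 44 higher and 88 lower. Hmox1 passed the threshold with upper-quartile factors (log2 fold change 0.53), DESeq2 (0.46), DESeq2 with length offset (0.46) and limma on log2(TPM + 1) (0.44), so that 2 of the 10 genes passed there. Its log2 fold change ranged from 0.40 to 0.53 when 1 rat was left out. Sod2 ranged from -1.84 to -1.03 in these fits and passed without SHR replicate 1, so that 2 of the 10 genes passed. Sod1 turned to 0.052 with upper-quartile factors and ranged from -0.074 to 0.069 when 1 rat was left out. Gpx1 turned to -0.041 without SHR replicate 1, in a range from -0.041 to 0.39, and Gstp1 to -0.031 without SHR replicate 2, in a range from -0.031 to 0.12. The number of antioxidant list genes past the threshold, 6, fell to 4 under the replicate block, where Mt1 missed the threshold (adjusted p = 0.106 from edgeR), rose to 12 with DESeq2 and length offset and to 10 with limma, and ranged from 5 to 10 when 1 rat was left out. Among all records, DESeq2 gave 782 (353 higher, 429 lower) and, with length offset, 852 (377 and 475). Leaving out 1 rat gave 237 to 454 records, 92 to 198 higher and 136 to 256 lower. The alternative without replicate 1 of both strains, added after the data were seen, gave 1068 records (303 higher, 765 lower), 19 list genes, 2 of the 10 genes, -2.13 for Sod2 and -0.15 for Gpx1. The Apoe record turned to -0.51 when records were summed per gene, and 5 list genes passed there. Between 6 and 8 of the 9 neighbouring pairs of levels could be ordered. Apart from the Apoe sum, where reads are divided among records, the cause of these changes was not tested. No scaling moved the median log2 fold change of all records by more than 0.062. Gclc rests on 183 to 560 estimated counts per rat, and 4 rats per strain limit the precision of all values.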
